A study of Mus musculus with 4 samples.

Results

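The semaphorins, plexins and neuropilins are a family of guidance ligands and receptors, taken here by gene symbol: Sema3 to Sema7 genes, Plxna to Plxnd genes, Nrp1 and Nrp2. The rule found 31 genes, 20 semaphorins, 9 plexins and 2 neuropilins, among 25177 gene symbols in the authors' deposited table. NIH-3T3, an established line of mouse embryonic fibroblasts, carried H2B-mCherry, the rtTA3G transactivator and a doxycycline-inducible CDX2 transgene under the TRE3G promoter, and controls carried the same constructs. Nuclear RNA was sequenced in 4 directional libraries of 500000 cells each, 2 after doxycycline (500 ng/ml, 6 h) and 2 after solvent alone for 6 h. The treatment protocol writes the same dose figure per microlitre. The comparison asks which nuclear transcripts differ after CDX2, a homeobox transcription factor of gut and trophectoderm, is induced. Solvent was the sole control, and no doxycycline-treated cells without the transgene were analysed here. Whether replicates were separate cultures is not stated, so the p-values may measure technical spread only.

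Semaphorins are secreted (class 3) or held in the membrane (classes 4 to 7), and they share the sema domain with their receptors, the plexins. Plexins carry a GTPase-activating domain for Ras and Rap proteins inside the cell, so that binding of a semaphorin changes integrin adhesion and actin. Most class 3 semaphorins bind plexins through a neuropilin co-receptor, which also binds VEGF ligands. In fibroblasts and other mesenchymal cells these genes are known for roles in migration, adhesion and tissue patterning.

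With doxycycline, the sole class 7 semaphorin Sema7a fell 4.71-fold in the authors' deposited table. Both neuropilins, 3 of 4 plexins A, Sema3a and Sema4b fell by smaller amounts, and Sema6c, Sema6b, Sema4c and Plxnd1 rose, all in the authors' deposited table. The plexin with the highest level per length, Plxnb2, stood at a log2 fold change of -0.03 ± 0.060 (± standard error) there and was not called. The authors' deposited table gives a limma p for every row. Its standard errors were close for genes of like level, so they may not measure each gene's own spread between replicates. A floor added here set aside genes below 10 counts per library as a geometric mean (0.230 CPM, counts scaled to a common library size), and the 22 of the 31 genes at or above it are called tested below. A call means an adjusted p of the authors under 0.05: of the 22, 8 fell, 4 rose and 10 missed it. That is 54.5% called, against 24.7% of the 12355 genes of the authors' deposited table at or above the same floor. The share that fell was 36.4% of members against 13.4% of all genes tested, and the share that rose was 18.2% against 11.3%, in the authors' deposited table. Their median log2 fold change was -0.14, against -0.001 over all genes tested, and the median size was 0.28 against 0.13 in the authors' deposited table. The genes were chosen with results of these data known, so these shares are a description. A stricter reading of the authors' deposited table multiplied every standard error by 2.08, the robust spread of t among tested genes. Under it 6 members were called lower (Sema7a, Plxna2, Sema3a, Sema4b, Nrp2 and Nrp1) and 0 higher, beside 2.81% of all genes tested called lower, 1.38% higher and 4.18% either way, and Plxna1, Plxna4, Sema4c, Sema6b, Sema6c and Plxnd1 lost their calls.

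The authors' deposited table gives 1 fold change and 1 mean level per transcript and no value per library. Levels by group are therefore set out from that mean and fold, and overlap between libraries could not be seen. Cdx2, the induced gene, was 124-fold higher with doxycycline, at 612 CPM against 4.96 CPM, in the authors' deposited table. All 12 fibroblast markers were tested, and 7 fell and 1 rose in the authors' deposited table. Among all genes tested 13.4% fell and 11.3% rose. The summed level of the 12 was 6379 CPM with doxycycline and 7522 CPM with solvent there. Of 8 neuronal markers 0 reached the floor (summed level 0.152 and 0.252 CPM in the authors' deposited table), and Snap25 and Syt1 had no reads. Summed levels of 8 endothelial markers were 4.09 and 4.75 CPM and of 8 immune markers 2.33 and 2.45 CPM, with Erg and Cd3e without reads, in the authors' deposited table. The endothelial marker Cdh5 (3.86 CPM) and the immune markers Cd68 (0.894 CPM) and Lyz2 (1.22 CPM) reached the floor and were not called. The 8 epithelial markers summed to 2.33 CPM with doxycycline and 4.46 CPM with solvent in the authors' deposited table, and Krt18, Cldn4 and Esrp1 had no reads. The 2 that reached the floor, Grhl2 (2.22 CPM) and Cdh1 (0.814 CPM), were called lower. Krt19, under the floor at 1.18 counts, was listed as higher. The part of the fibroblast and epithelial markers' change in the results below was not tested, and in bulk RNA fewer cells of a type and less RNA per cell cannot be told apart.

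**Figure D1:**
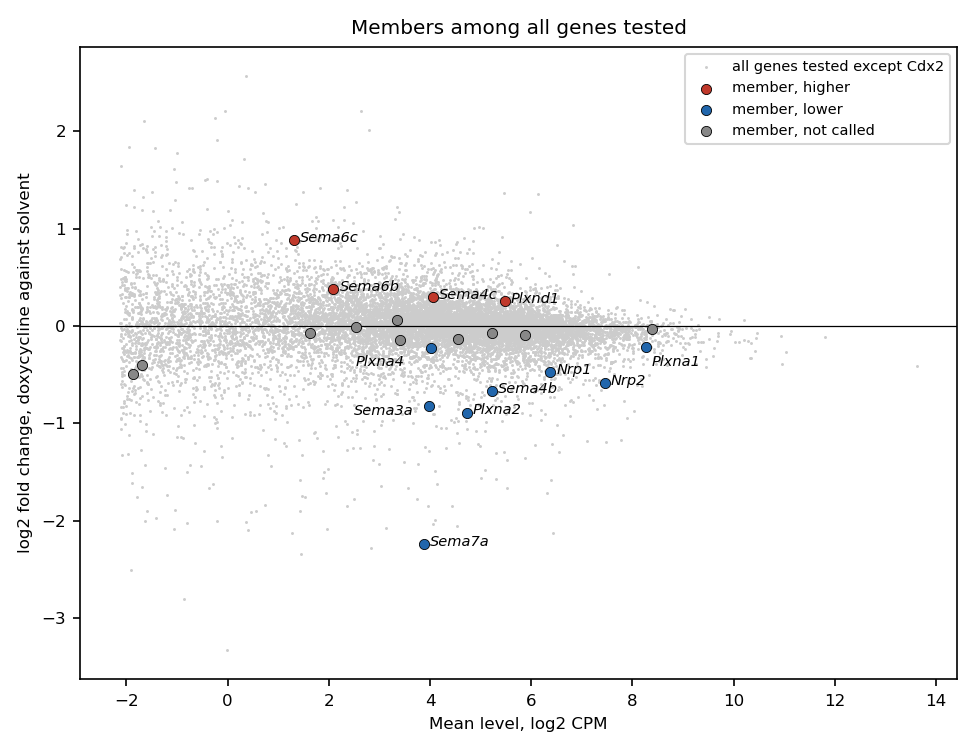
Mean level (log2 CPM) against log2 fold change with doxycycline for all genes tested other than Cdx2 (grey) and the 22 tested semaphorin, plexin and neuropilin genes (large points, coloured by call). Sema7a sits at -2.24, well below the other 21, which lie between -0.89 and 0.88.

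Sema7a encodes a semaphorin held in the membrane by a lipid anchor, which binds beta-1 integrins and plexin C1. Its row (NM_011352, mm10 chromosome 9, 57940112 to 57962865, plus strand) stood at 31.8 CPM with solvent and 6.75 CPM with doxycycline in the authors' deposited table. The log2 fold change was -2.24 ± 0.084, with a 95% interval of 4.21-fold to 5.28-fold lower and an adjusted p of 2.14e-152 in the authors' deposited table. It ranked number 6 from the lowest log2 fold change of the 12355 genes at or above the floor there, and was the 1 tested member called at 2-fold or more. Sema7a has 1 row, and no other gene of GENCODE M21 overlaps its span. Per kb of exon it fell from 9.72 to 2.06 CPM, which took it from a level near that of Sema4b (12.2 CPM per kb with solvent) to one below that of Sema3b (2.94 with doxycycline), in the authors' deposited table. Of its receptors, Plxnc1, which encodes plexin C1, lay under the count floor at 0.202 CPM with a log2 fold change of 0.04 ± 0.36 in the authors' deposited table. The integrin subunit genes Itgb1 (0.01 ± 0.060 at 419 CPM) and Itga1 (0.35 ± 0.14 at 2.95 CPM, adjusted p 0.0643) were not called in the authors' deposited table.

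The bases just upstream of the start are shown for the 3 largest falls (Sema7a, Plxna2 and Sema3a), the largest rise among tested genes (Sema6c), and Sema4f, which was called under the floor. They are RefSeq sequences of GRCm38.p6, the build also named mm10, 250 bases ending 1 base before a transcript start of the authors' deposited table, written 5′ to 3′ on the gene's strand. Capitals mark the GC box GGGCGG, a site of Sp factors, searched on both strands.
Sema7a (chr9:57939862-57940111, plus strand): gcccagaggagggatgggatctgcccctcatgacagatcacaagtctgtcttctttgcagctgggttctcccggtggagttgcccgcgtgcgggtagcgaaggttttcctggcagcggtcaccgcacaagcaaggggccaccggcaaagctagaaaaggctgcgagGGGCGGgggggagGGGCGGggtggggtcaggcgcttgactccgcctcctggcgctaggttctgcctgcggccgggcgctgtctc
Plxna2 (chr1:194619579-194619828, plus strand): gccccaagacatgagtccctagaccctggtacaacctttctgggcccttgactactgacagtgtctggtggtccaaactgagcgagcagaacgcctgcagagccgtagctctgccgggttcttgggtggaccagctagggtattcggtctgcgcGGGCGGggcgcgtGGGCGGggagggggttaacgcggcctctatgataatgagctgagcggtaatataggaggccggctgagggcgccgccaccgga
Sema3a (chr5:13396534-13396783, plus strand, start of NM_001243072): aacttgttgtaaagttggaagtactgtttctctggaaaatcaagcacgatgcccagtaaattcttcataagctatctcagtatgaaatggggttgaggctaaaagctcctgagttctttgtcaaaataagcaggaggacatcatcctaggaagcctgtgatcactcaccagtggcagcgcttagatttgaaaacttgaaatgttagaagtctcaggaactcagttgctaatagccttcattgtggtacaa
Sema6c (chr3:95160170-95160419, plus strand): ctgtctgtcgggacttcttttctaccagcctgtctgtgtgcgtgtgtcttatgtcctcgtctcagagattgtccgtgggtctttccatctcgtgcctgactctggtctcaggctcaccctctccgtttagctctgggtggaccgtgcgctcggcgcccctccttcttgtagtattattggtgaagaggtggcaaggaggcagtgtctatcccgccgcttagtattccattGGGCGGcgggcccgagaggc
Sema4f (chr6:82939770-82940019, minus strand): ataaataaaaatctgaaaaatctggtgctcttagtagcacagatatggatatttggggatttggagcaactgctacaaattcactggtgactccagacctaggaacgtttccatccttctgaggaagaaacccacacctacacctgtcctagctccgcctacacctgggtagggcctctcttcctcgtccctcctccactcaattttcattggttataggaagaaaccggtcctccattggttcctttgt
The upstream bases of Sema7a and Plxna2 each hold 2 GC boxes, those of Sema6c hold 1, and those of Sema3a and Sema4f hold none. Their G and C content was 66.4% for Sema7a, 62.8% for Plxna2, 57.6% for Sema6c, 46.0% for Sema4f and 40.8% for Sema3a. The row that stands for Sema3a below, NM_009152, starts further downstream, at 13399309. The bases upstream of that start were not searched. RefSeq windows were found for 26 of the 31 genes, 17 of them tested, and 16 of these 17 had a GC box against 64.2% of 9727 tested genes with a window. The median G and C content was 64% over all 37 windows of members, tested or not, and 60% over the windows of tested genes. A CCAAT box (CCAAT, both strands) was found in 3 of the 17 (Sema4a, Sema6b and Sema6c), against 41.6% of tested genes. The TATA box TATAAA was in 0 of the 17, against 7.73%, and the AP-1 letters TGANTCA were in Sema4c and Sema6b, against 5.41%. TTTATNG, a core bound by CDX proteins, was searched on both strands in windows of 300 bases, the 250 upstream and 50 from the start. It was in 0 of the 17 tested genes, against 8.05% of tested genes. Of the 26 genes with a window, tested or not, 1 held it, against 12.5% of all 27025 genes with a window. That match was in Sema3e, a gene without reads, 142 bases before the start: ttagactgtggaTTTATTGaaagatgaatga, with the motif in capitals. These are matches of letters in short windows and say nothing of binding there or elsewhere.

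Among class 3, the secreted semaphorins, 4 of 7 genes were tested, and Sema3a was the 1 that changed in the authors' deposited table. Sema3a, the classic collapsin that repels axons and acts through neuropilin 1 and plexins A, stood at 21.1 CPM with solvent and 11.9 CPM with doxycycline in the authors' deposited table. It fell 1.77-fold (log2 fold change -0.82 ± 0.085, adjusted p 7.38e-20) in the authors' deposited table. Sema3c, known from cardiac outflow tract development, was the most abundant secreted semaphorin per length (12.4 CPM per kb with solvent and 11.6 with doxycycline in the authors' deposited table) and was not called. Its log2 fold change was -0.09 ± 0.067, while Sema3f, a ligand of neuropilin 2, stood at -0.13 ± 0.075 and Sema3b at 0.06 ± 0.089, in the authors' deposited table. Sema3a, Sema3c, Sema3d and Sema3e lie on chromosome 5 in the order Sema3d, Sema3a, Sema3e, Sema3c, with gaps of 810, 422 and 3318 kb. Along this stretch Sema3d and Sema3e had no reads in any library, Sema3a fell and Sema3c was not called in the authors' deposited table. Sema3b and Sema3f are 76.1 kb apart on chromosome 9, and neither was called. The 3 untested genes of the class were Sema3d, Sema3e and Sema3g, the last with a geometric mean of 0.0946 counts in the authors' deposited table.

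Class 4 semaphorins, which span the membrane and mostly bind plexins B, split in direction. Sema4b fell 1.59-fold from 47.0 to 29.6 CPM (log2 fold change -0.67 ± 0.070, adjusted p 2.96e-19) in the authors' deposited table. Sema4c, a ligand of plexin B2, rose from 15.1 to 18.5 CPM (0.30 ± 0.080, adjusted p 0.00253) in the authors' deposited table. Sema4b was the most abundant membrane semaphorin per length with solvent, at 12.2 CPM per kb, and Sema4c stood at 3.88 CPM per kb, in the authors' deposited table. Sema4a (-0.40 ± 0.32) and Sema4g (-0.49 ± 0.34) were near the floor at 0.309 and 0.275 CPM and were not called in the authors' deposited table. Their 95% intervals ran from -1.03 to 0.23 and from -1.16 to 0.17.

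Sema4d and Sema4f, also of class 4, did not reach the floor. Sema4d, the ligand of plexin B1, had a geometric mean of 4.5 counts and a log2 fold change of 0.83 ± 0.45 (adjusted p 0.262) in the authors' deposited table. Sema4f had a mean of 3.07 counts, yet the authors' deposited table lists it with a log2 fold change of 3.09 ± 0.51 and an adjusted p of 3.19e-08. Its levels correspond to 0.0268 CPM with solvent and 0.228 CPM with doxycycline in the authors' deposited table, and a gene without reads is listed at 0.0118 CPM with solvent. The fold of Sema4f rests on few reads and on the amount added to each library before the logarithm, and it is neither a bound nor part of the counts above. Both of its rows gave nearly the same value (3.07 and 3.09 in the authors' deposited table), and no other gene of GENCODE M21 overlaps them.

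Class 5 and class 6 semaphorins also span the membrane, and class 6 proteins bind plexins A directly. Sema5a, at 37.5 CPM, stood at -0.08 ± 0.070 and was not called, and Sema5b had no reads in the authors' deposited table. Sema6c rose from 1.82 to 3.36 CPM, 1.84-fold (0.88 ± 0.15, adjusted p 6.50e-08), in the authors' deposited table. Sema6b rose from 3.74 to 4.86 CPM, 1.30-fold (0.38 ± 0.12, adjusted p 0.0175), there as well. Sema6a, at 5.82 and 5.77 CPM with a log2 fold change of -0.01 ± 0.11, was not called in the authors' deposited table. Sema6d held a geometric mean of 0.158 counts in the authors' deposited table and was not tested. The row that stands for Sema6c, NR_073550, is a noncoding transcript, and its coding row with the same start (NM_001272024) gave the same log2 fold change of 0.88 in the authors' deposited table.

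**Figure D2:**
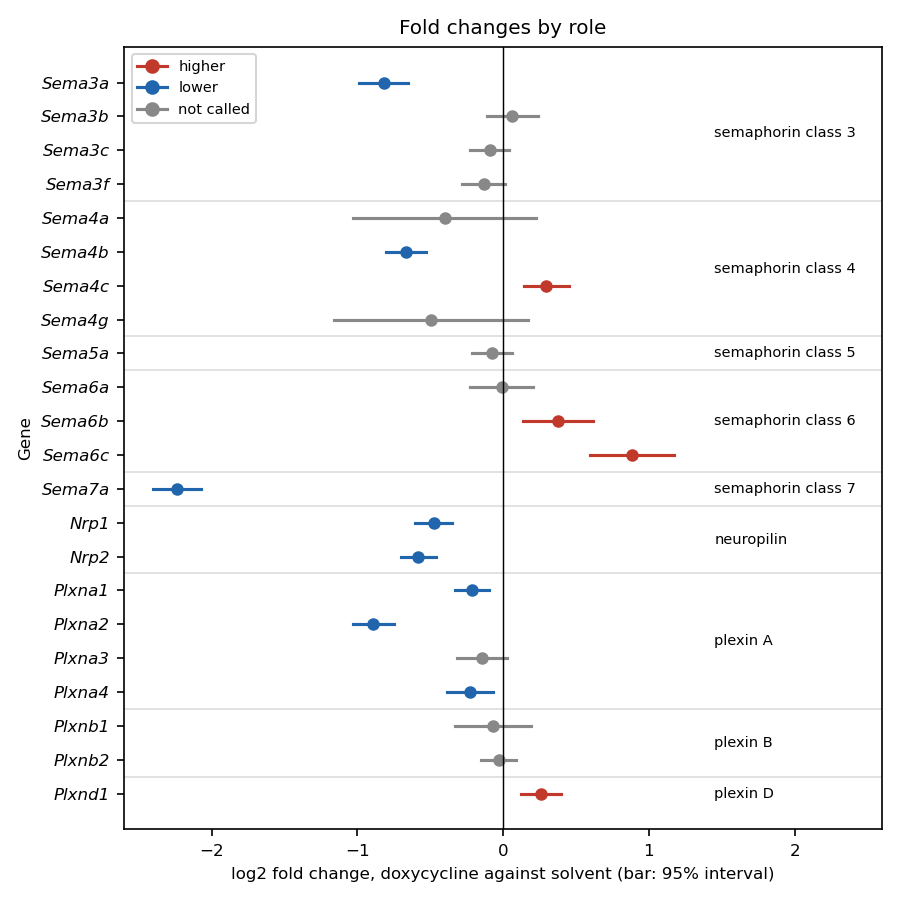
Log2 fold change with doxycycline against solvent for the 22 tested genes, grouped by role, with bars for the 95% interval and colour for the call. Both neuropilins and all 4 plexins A lie below 0, 3 of these 4 called lower, while Plxnd1, Sema4c, Sema6b and Sema6c lie above 0 and are called higher.

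Both neuropilins fell. Nrp1, the co-receptor of Sema3a and of VEGF-A, went from 98.3 CPM with solvent to 70.5 CPM with doxycycline in the authors' deposited table. That is 1.39-fold lower (log2 fold change -0.48 ± 0.066, adjusted p 1.62e-11) in the authors' deposited table. Nrp2, the co-receptor of Sema3f and Sema3c and of VEGF-C, went in the authors' deposited table from 215 to 143 CPM, 1.5-fold lower (-0.58 ± 0.062, adjusted p 4.27e-19). The 95% intervals of the log2 fold changes, -0.61 to -0.35 for Nrp1 and -0.70 to -0.46 for Nrp2, overlapped. Nrp2 has 6 rows with 2 ends. Those that end early (at 62797091 on chromosome 1) gave -0.63 against -0.58 for those that run to 62818692 in the authors' deposited table. These rows share reads, so the standard error of 1 row is not that of the gap. Whether the 2 ends differ was not tested. The summed level of the neuropilins per length was 48.7 CPM per kb with solvent and 33.3 with doxycycline in the authors' deposited table.

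Plexins A, the signalling receptors of class 3 and class 6 ligands, fell unequally. Plxna2, a receptor for Sema3a and Sema6a, went from 35.9 to 19.4 CPM, 1.85-fold lower (log2 fold change -0.89 ± 0.073, adjusted p 4.59e-32), in the authors' deposited table. Plxna1, the most abundant plexin A, went from 332 to 286 CPM (-0.21 ± 0.060, adjusted p 0.00423), and Plxna4 from 17.6 to 15.0 CPM (-0.23 ± 0.081, adjusted p 0.0355), in the authors' deposited table. Plxna3, at 10.5 CPM, was not called in the authors' deposited table (-0.15 ± 0.088, adjusted p 0.334). The 95% interval of Plxna2, -1.03 to -0.75, did not overlap those of the other plexins A, of which the lowest bound was -0.39 for Plxna4. The summed level of plexins A went from 43.3 to 36.3 CPM per kb in the authors' deposited table, most of it from Plxna1 (37.0 and 31.9). Antisense genes of GENCODE M21 lie within Plxna1 (Gm26811), Plxna4 (Plxna4os1, Plxna4os2 and Plxna4os3) and Nrp2 (Gm29083), and how the counting treated strand is not given here.

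None of the other tested plexins was called lower. Plxnb2, the receptor of Sema4c, had the highest level per length of all 22 genes, at 53.0 CPM per kb with solvent and 51.8 with doxycycline in the authors' deposited table. Plxnb1, the receptor of Sema4d, stood at 3.11 CPM with a log2 fold change of -0.07 ± 0.13 in the authors' deposited table. Plxnb3 was under the floor at 2.07 counts (-1.06 ± 0.55, adjusted p 0.222) there. Plxnd1, the receptor through which Sema3e patterns vessels, rose from 40.8 to 48.9 CPM, 1.20-fold (0.26 ± 0.069, adjusted p 0.00188), in the authors' deposited table, while its ligand gene Sema3e had no reads. Whether the folds of plexins A and plexins B differ as groups was not tested.

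**Figure D3:**
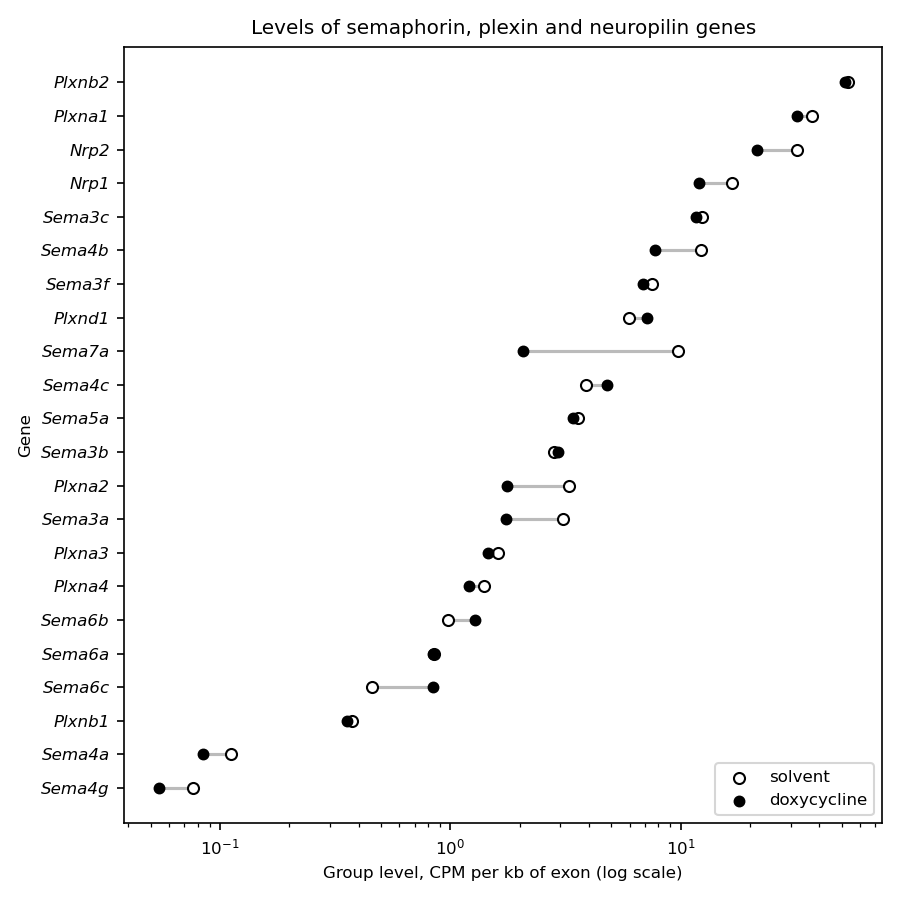
Group levels per kb of exon, in CPM on a log axis, for the 22 tested genes, worked out from the mean level and fold of each row (open circles solvent, filled circles doxycycline). Plxnb2, Plxna1, Nrp2 and Nrp1 lie at the top in both groups, and the longest line is that of Sema7a, from 9.72 to 2.06 CPM per kb.

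Set side by side as known ligands and receptors, Sema3a (-0.82), Nrp1 (-0.48) and Plxna2 (-0.89) were all lower in the authors' deposited table. Plxna1 (-0.21) and Plxna4 (-0.23), also set beside Sema3a, were lower by less. Sema6a (-0.01) was not called while Plxna2 fell. Sema3f (-0.13) was not called while its co-receptor gene Nrp2 (-0.58) fell in the authors' deposited table. Sema4c (0.30) rose while Plxnb2 (-0.03) was not called in the authors' deposited table. Sema6b (0.38) rose while Plxna4 (-0.23) fell in the authors' deposited table. The calls of Sema4c, Sema6b, Plxna1 and Plxna4 were all lost with the multiplied standard errors. Over all 31 genes the summed level per length of the semaphorins went from 57.7 to 44.2 CPM per kb in the authors' deposited table. Within that sum the secreted class went from 25.8 to 23.1 CPM per kb and the membrane classes from 31.9 to 21.1, in the authors' deposited table. Without Sema7a and Sema4b, the other 11 membrane genes summed to 9.95 CPM per kb with solvent and 11.3 with doxycycline in the authors' deposited table. The plexins summed to 103 CPM per kb with solvent and 95.7 with doxycycline in the authors' deposited table.

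Transcript rows of 1 gene had the same call. Of the 22 tested genes, 13 had several transcript rows at or above the floor, 43 rows in all, and in each of the 13 all rows had the same call in the authors' deposited table. The widest range was 0.05 on the log2 scale, in Sema6c, and in each of the 13 the range was smaller than the median standard error. Rows of 1 gene share exons and reads, so they are not replicates. For the same reason a narrow range was likely from the start, and it does not show that transcripts of a gene changed alike.

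Genes that work with semaphorin receptors were followed in 5 lists of 78 genes, 63 of them tested. The authors' deposited table had 10 of the 63 called higher, 10 lower and 43 not called, so that 31.7% were called beside 24.7% of all genes tested. With the median of ribosomal protein genes set to 0, the split was 16 higher and 9 lower (15.5% and 10.7% of all genes tested). With the multiplied standard errors it was 2 higher and 4 lower (1.38% and 2.81% of all genes tested). The median log2 fold change of the 63 was -0.01 in the authors' deposited table. In the order of the lists below, 28.6%, 60%, 31.8%, 27.3% and 28.6% of tested genes were called. The 60% is 3 of 5 genes of the VEGF list. With the multiplied standard errors that list had 0 higher and 0 lower. The list of exchange factors and GTPases then had 0 higher and 1 lower. The counts below stand beside 11.3% of all genes tested called higher and 13.4% called lower.

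Among integrin, adhesion and kinase partners of the receptors, 2 of 7 tested genes fell and 0 rose, with a median of -0.01, in the authors' deposited table. Met, the receptor of hepatocyte growth factor and a partner of plexin B1, fell from 144 to 84.8 CPM (-0.76 ± 0.064, adjusted p 8.48e-30) in the authors' deposited table. Nrcam, an adhesion molecule that binds neuropilin 2, fell from 6.98 to 4.72 CPM (-0.57 ± 0.11) in the authors' deposited table. Erbb2, another partner of plexins B, was not called (0.17 ± 0.066) there.

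Of the VEGF ligands and receptors that share neuropilins, 1 of 5 tested genes rose and 2 fell, with a median of -0.04, in the authors' deposited table. Pgf, placental growth factor, rose from 0.363 to 0.967 CPM (1.41 ± 0.28, adjusted p 1.01e-05), in the authors' deposited table. Vegfd fell from 3.74 to 2.11 CPM (-0.83 ± 0.14) and Vegfa from 59.7 to 52.4 CPM (-0.19 ± 0.067) in the authors' deposited table. Flt1, a VEGF receptor gene, stood at 0.07 ± 0.069 and was not called, and Kdr was under the floor, in the authors' deposited table.

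Exchange factors, GTPases and GTPase-activating proteins downstream of plexins had 4 rises and 3 falls among 22 tested, with a median of -0.02, in the authors' deposited table. The R-Ras relatives Rras2 (-0.54 ± 0.065) and Mras (-0.23 ± 0.068), substrates of the plexin GTPase-activating domain, and Rasa1 (-0.34 ± 0.070), a Ras GTPase-activating protein, fell in the authors' deposited table. Rras, the gene of R-Ras itself, was not called there (0.24 ± 0.094, limma, adjusted p 0.0691). Rhod (0.41 ± 0.078) and Rnd1 (0.36 ± 0.12), GTPases that bind plexins, rose with Sh3bp1 (0.22 ± 0.078) and Rap1b (0.18 ± 0.065) in the authors' deposited table. The plexin B exchange factor genes Arhgef11 (0.10 ± 0.069) and Arhgef12 (0.02 ± 0.063), and Gipc1 (0.19 ± 0.072), whose protein binds the tail of neuropilin 1, were not called in the authors' deposited table.

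Cytoskeletal and kinase effectors had 4 rises and 2 falls among 22 tested, with a median of 0.03, in the authors' deposited table. Mical1 (0.64 ± 0.18) and Mical3 (0.36 ± 0.069), actin-oxidising enzymes of the family that acts below plexin A, rose, as did the kinase genes Fyn (0.53 ± 0.068) and Limk2 (0.30 ± 0.091), in the authors' deposited table. Micall2, a MICAL-like protein gene, fell from 35.3 to 20.8 CPM (-0.77 ± 0.074) and Limk1, a cofilin kinase gene, fell as well (-0.33 ± 0.068) in the authors' deposited table. Dpysl2, which encodes the collapsin response mediator CRMP2, was not called (-0.10 ± 0.062 at 194 CPM) in the authors' deposited table.

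Of 7 tested proteases that cut semaphorins or their receptors, 1 rose and 1 fell, with a median of -0.03, in the authors' deposited table. Adamts4 rose from 3.36 to 7.13 CPM (1.09 ± 0.12) and Adamts1 fell from 51.0 to 31.7 CPM (-0.68 ± 0.070) in the authors' deposited table. Furin, which processes class 3 semaphorins, stood at 0.08 ± 0.064 in the authors' deposited table.

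**Figure D4:**
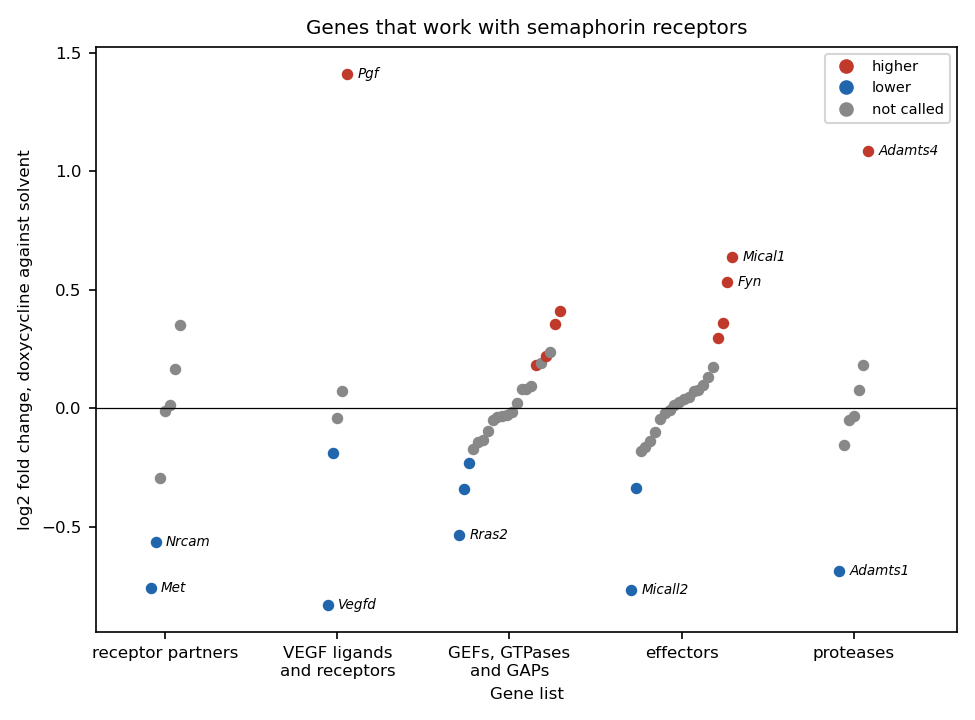
Log2 fold change with doxycycline against solvent of the 63 tested genes in 5 lists of partners and effectors, 1 point per gene, coloured by call, with names for called genes past 0.5 in size. Points lie on both sides of 0 in each list, and the highest is Pgf at 1.41 and the lowest Vegfd at -0.83.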

How the data were processed

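The authors' deposited table compares doxycycline with solvent in 40739 transcript rows, and its values per the file headers are a log2 fold change, a mean log2 CPM, a moderated t score, and p-values, and other columns hold transcript positions and exon lengths in bases. Listed without roles, per the submitters' processing notes, are limma, edgeR, HOMER 4.10, Picard, SAMtools 1.10, STAR 2.7.1a and mm10. Its p-values match 44446 degrees of freedom in each of 2287 rows, below the 81478 that 2 per row would give. Taken as a total pooled over rows, it is 1.09 per row of the table. That is near 1 residual degree of freedom per row, or 3 coefficients for 4 libraries. No source used here names the third coefficient, so whether the authors' fit held a replicate term is not known. The standard error is the log2 fold change divided by t, intervals assume normal errors, and group levels are the mean plus or minus 0.5 times the log2 fold change. Genes of like mean log2 CPM had nearly the same standard error (Plxnb2 0.0601 at 8.40, Plxna1 0.0605 at 8.27). With the same degrees of freedom in each row, the standard errors, intervals and p-values may rest on a variance shared between genes. They are then not the replicate spread of the single gene. The lowest rows lie on whole steps (100% of 13345 rows, tolerance 0.01), as counts in steps of 0.5 with 0.5 added per library, or whole counts with 1 added, would give. Counts here are on the first scale (45700000 effective counts as a geometric mean) and double on the other (91400000).

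Each gene is its row with the highest mean, counted as tested at 10 counts (a floor of this work, since the table has a p for every row), and called at the authors' adjusted p under 0.05. The design, members, lists and naming rule (all tested members, up to 6 called genes per list, direct partners, Cdx2) were chosen with earlier results of these data known. Rap1b, Rras, Erbb2, Flt1, Kdr, Arhgef11, Arhgef12, Dpysl2 and Furin were named outside the rule, after their values were seen. Python 3.11.15, pandas 2.3.3 and scipy 1.17.1 were used, and the script's adjustment and call steps were checked on simulated data. Promoter windows are RefSeq's, and 32 of 37 start at a row start of the table.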

Additional observations from a re-analysis of the deposited data

How the results depend on the processing

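No paired analysis was possible because the table holds no value per library. For the same reason single libraries could not be left out, and neither fit was run. The authors' own fit may hold a replicate term, since its degrees of freedom, if pooled over rows, are near those of 3 coefficients. The counts of 8 members lower and 4 higher were recomputed under 11 alternatives, of which 1, a floor of 5 counts, was chosen after seeing the data. With widened standard errors 0 members were higher and 6 lower, and the partner lists had 2 higher and 4 lower. Of all genes tested, 1.38% were higher and 2.81% lower under that setting. Setting the median of ribosomal protein genes (-0.04) to 0 gave 4 members higher and 7 lower, without Plxna4 (adjusted p 0.108), and 16 list genes higher. The shares of all genes tested were then 15.5% higher and 10.7% lower. Removing the trend of fold change with level gave 3 and 7, without Plxna1 (adjusted p 0.136) and Sema6b (adjusted p 0.0586). The share of all genes called was not worked out for that setting, so these counts have nothing to be read against. No floor added Sema4f. Other alternatives, including the choice of transcript row, left every call of the 22 tested members in place, though a floor of 50 counts left 20 of them. The cause of these changes was not tested. Depth limits genes near the floor, such as Sema4a and Sema4g.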

Other observations

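Hgf, the ligand of Met, was singled out after its values were seen. It lay under the floor with a geometric mean of 3.06 counts, and the authors' deposited table lists it with a log2 fold change of -3.35 ± 0.53 (limma, adjusted p 9.71e-09). Its levels correspond to 0.248 CPM with solvent and 0.0244 CPM with doxycycline in the authors' deposited table, and the fold rests on few reads.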
